A study of Mus musculus with 11 samples.

Results

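The genes of the mitochondrial genome were described in RNA from sorted epidermal cells. They were all genes that Ensembl release 96 places on the mouse mitochondrial chromosome (chrM, build GRCm38), 37 of the 55536 genes in the count tables, and comprised 13 mRNAs, 2 rRNAs and 22 tRNAs. The cells came from the dorsal skin (epidermal back skin, EBS) of male CD4Cre R26-tdT mice on a C57Bl6/N background, with cells of 2 mice pooled per library. In these mice Cre is driven by Cd4, and cells that expressed it, or descend from such cells, carry the fluorescent protein tdT. Libraries were made from 4 sorted groups, all labelled CD49f+CD34+: tdT+CD49f+CD34+ (SCA-1neg, n = 3), tdTneg CD49f+CD34+ (SCA-1neg, n = 3), tdT+CD49f+CD34+SCA-1+ (n = 3) and tdTneg CD49f+CD34+SCA-1+ (n = 2). Mice were 29 weeks old for replicate 1 and 32 weeks old for replicates 2 and 3 of every group. CD49f is an integrin of basal keratinocytes, CD34 marks the hair follicle bulge, and SCA-1 marks the infundibulum and the basal interfollicular epidermis.

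The mammalian mitochondrial genome is a small circle that is transcribed from both strands into long precursors. These are cut at the tRNAs into the 2 rRNAs of the mitochondrial ribosome and into mRNAs for subunits of the respiratory chain and the ATP synthase, while all other subunits of these complexes come from nuclear genes. Most mitochondrial mRNAs carry short poly(A) tails and are read by poly(A)-enriched libraries such as those of the kit used here, in which mature tRNAs are poorly captured. Pieces of mitochondrial DNA have also been inserted in the nuclear genome, and a read that matches both copies cannot be placed on one of them.

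Counts fell on only 7 of the 13 mRNAs. mt-Nd1 (chrM:2751-3707), mt-Nd2 (chrM:3914-4951), mt-Nd4 (chrM:10167-11544), mt-Nd5 (chrM:11742-13565) and mt-Nd6 (chrM:13552-14070, on the minus strand) encode subunits of complex I, mt-Cytb (chrM:14145-15288) encodes cytochrome b of complex III, and mt-Co1 (chrM:5328-6872) the catalytic subunit of complex IV. The other 6 were at 0 counts in all 11 libraries: mt-Co2 (chrM:7013-7696) and mt-Co3 (chrM:8607-9390) of complex IV, mt-Atp8 (chrM:7766-7969) and mt-Atp6 (chrM:7927-8607) of the ATP synthase, and mt-Nd3 (chrM:9459-9806) and mt-Nd4l (chrM:9877-10173) of complex I. In a library of 17409131 counts, the shallowest, a count of 0 allows up to 3 counts, and this limits the counts assigned to the gene, not its RNA. No statement on the RNA of these 6 mRNAs can be drawn from the tables.

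The 6 mRNAs at 0 lie next to each other, and the nuclear genome holds an almost perfect copy of that stretch. The annotated pseudogenes Gm29216, Gm28661, Gm10925, Gm28437, Gm28438, Gm10222 and Gm28439 lie in a row on the minus strand of chr1:24611535-24616197 and copy chrM:6390-11042, from base 1063 of mt-Co1 to base 876 of mt-Nd4. All 6 mRNAs inside this stretch were at 0, and none of the 7 mRNAs that lie outside it in whole or in part. Of the windows of 50 bases in each gene, 100% were also found in annotated nuclear transcripts for mt-Co2, 99.9% for mt-Co3, 99.5% for mt-Atp6, 98.8% for mt-Nd4l and 98.0% for mt-Nd3, against 62.2% for mt-Nd4, 51.1% for mt-Co1, 8.19% for mt-Nd2, 7.61% for mt-Nd5 and 0% for mt-Nd1, mt-Nd6 and mt-Cytb. For mt-Atp8 it was 0%. The last 43 of its 204 bases lie inside mt-Atp6, fewer than a window, and the 161 bases before them fall in the 233 bases between the annotated copies of mt-Co2 and mt-Atp6 on chr1, a gap as long as the one between the same points of chrM. Among the tRNAs, 4 of the 5 inside the stretch (mt-Ts1, mt-Td, mt-Tk and mt-Tg) and 3 of the 17 outside it (mt-Tw, mt-Ty and mt-Th) were at 0. Whether reads from these genes were dropped because they matched both places was not tested, and the treatment of such reads is not given in the sources used here.

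Sequences of 3 mRNAs and their copies, from the GENCODE transcripts of the same annotation (GRCm38), show how near the copies are. The first 60 bases are printed for mt-Co2, which is at 0 and has an identical copy, and for mt-Nd3, which is at 0 and differs from its copy by T3C; bases 41 to 100 are printed for mt-Co1, which is counted, beside its copy on chr2. Capitals mark bases that differ between the member and its copy, and positions are counted from 1 at the first base of the mitochondrial gene.
mt-Co2: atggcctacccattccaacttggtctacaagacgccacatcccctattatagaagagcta
Gm28661: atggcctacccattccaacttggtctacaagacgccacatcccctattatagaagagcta
mt-Nd3: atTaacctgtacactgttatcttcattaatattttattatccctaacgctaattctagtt
Gm28438: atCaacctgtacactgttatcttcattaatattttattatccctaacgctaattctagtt
mt-Co1: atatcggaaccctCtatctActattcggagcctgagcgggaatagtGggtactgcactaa
Gm13340: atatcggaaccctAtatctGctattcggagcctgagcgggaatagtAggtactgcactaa

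Gm28661 (chr1:24614885-24615565) matched mt-Co2 over 681 bases with 0 differences, as Gm10925 did mt-Atp6 over 678, Gm28437 mt-Co3 over 783, Gm10222 mt-Nd4l over 294 and Gm28439 mt-Nd4 over its first 876 bases. Between 0 and 16 counts per library were on these 5 copies, each taken alone. Gm28438 (chr1:24612775-24613119) differed from mt-Nd3 at 1 of 345 bases, and held 19 to 129 counts in every library while mt-Nd3 held 0. Gm13340 (chr2:22588103-22589647) differed from mt-Co1 at 37 of 1545 bases, among them C54A, A60G and G87A, and held 25 to 132 counts, against 81023 to 417398 on mt-Co1.

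**Figure D1:**
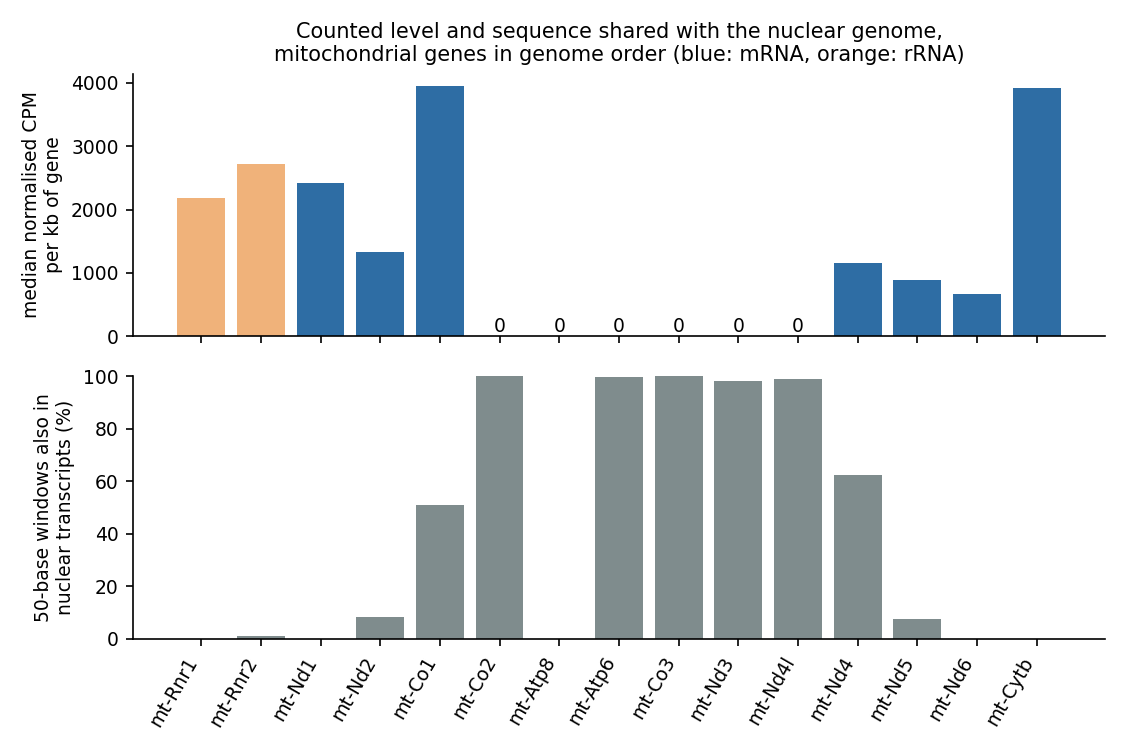
The upper panel gives the median normalised CPM (counts scaled to 1000000 per library) per kb of gene over the 11 libraries for the 13 mRNAs (blue) and 2 rRNAs (orange) in genome order, and the lower panel the percentage of windows of 50 bases that also occur in annotated nuclear transcripts. The 6 neighbouring genes marked 0 have no counts in any library, and 5 of them share 98.0% or more of their windows.

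Since only part of mt-Co1 and mt-Nd4 is free of copies, levels were compared between genes per 1000 windows of the gene's own, that is, windows that neither occur in a nuclear transcript nor touch another mitochondrial gene. This scale treats counts as coming from those windows alone, which was not tested, and the order per kb of the whole gene is therefore given too. On this scale mt-Co1 had the highest median, 8351 normalised CPM (6148 to 13921 over 11 libraries), and was the highest gene in 10 of 11 libraries, the exception being tdT+CD49f+CD34+ replicate 1, where mt-Rnr2 stood at 13524. mt-Co1 was above mt-Cytb, at a median of 4094, in 11 of 11 libraries, and mt-Cytb above mt-Rnr2 in 7. mt-Cytb was above mt-Nd4 (3164) in 11 of 11. mt-Nd4, mt-Rnr2 (2829), mt-Nd1 (2558), mt-Rnr1 (2300.5) and mt-Nd2 (1530.2) followed, but neighbours in this order changed places between libraries: mt-Nd4 was above mt-Rnr2 in 7, mt-Rnr2 above mt-Nd1 in 7, mt-Nd1 above mt-Rnr1 in 6 and mt-Rnr1 above mt-Nd2 in 8 of 11. mt-Nd2 was above mt-Nd5 (996.7), and mt-Nd5 above mt-Nd6 (754.2), in 11 of 11. Per kb of the whole gene, mt-Nd4 stood 7th in place of 3rd, at 1153, and the gap between mt-Co1 (3951) and mt-Cytb (3919) nearly closed. mt-Nd6 overlaps the end of mt-Nd5 on the opposite strand, and the strand setting of the counting is not given in the sources used here.

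3 of the 11 libraries held transcripts that the labels do not lead one to find in sorted epidermis. They were labelled tdT+CD49f+CD34+ replicate 1, tdT+CD49f+CD34+ replicate 2 and tdTneg CD49f+CD34+ replicate 2. In them 12 transcripts of secreted liver proteins summed to 31132, 17226 and 18570 CPM, against 13.7 to 122.3 CPM in the other 8, and Alb (albumin) alone to 8521, 4547 and 5861 CPM against 3.16 to 37.2. Xist, the RNA of the inactive X chromosome in females, stood at 372.5, 1364 and 202.6 CPM, against 0.410 to 1.26 elsewhere, although all mice are labelled male. A further row of every count file, 1 in each, has no Ensembl identifier and no description, and had 3301 to 9306 counts in 5 tdT+ libraries, 97 to 176 in the tdTneg libraries and 37 in tdT+CD49f+CD34+ replicate 2. Keratinocyte transcripts were present in all 11 libraries, with 7318 to 16624 CPM of Krt5, and so was Itga6, which encodes CD49f, at 344.5 to 1309 CPM. Ly6a, which encodes SCA-1, stood at 148.9 to 297.5 CPM in the SCA-1+ and 2.36 to 61.3 CPM in the SCA-1neg libraries. Cd34 went against the label of 1 group: it stood at 24.9, 36.1 and 21.7 CPM in the libraries labelled tdT+CD49f+CD34+SCA-1+, against 335.8 and 386.1 in tdTneg CD49f+CD34+SCA-1+ and 416.7 to 1138 in the SCA-1neg libraries. The sort was made on the protein, and whether these cells carried it cannot be told from counts. Fold changes within tdTneg cells compare other libraries, but those libraries enter the filter, the scaling and the spread of the fit. With the tdTneg libraries fitted alone 0 of 7 mRNAs were called between the populations, and 7.61% of all genes. Total counts on genes ranged from 17409131 to 46542177 per library. Results are given with all 11 libraries, and for the main ones the value without the 3 libraries that hold liver transcripts is added. Leaving them out leaves 1 tdT+CD49f+CD34+ library, which is then assumed to vary like the others.

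The mitochondrial share of counts was lower in CD49f+CD34+SCA-1+ libraries than in CD49f+CD34+ libraries, and its parts did not move together. All 37 genes took 4.20%, 3.56% and 2.57% of counts in tdT+CD49f+CD34+ replicates 1, 2 and 3, and 2.78%, 3.59% and 3.70% in tdTneg CD49f+CD34+ replicates. They took 1.44%, 2.28% and 1.84% in tdT+CD49f+CD34+SCA-1+ replicates, and 2.24% and 2.21% in tdTneg CD49f+CD34+SCA-1+ replicates. The 5 SCA-1+ libraries (1.44% to 2.28%) thus lay below the 6 SCA-1neg libraries (2.57% to 4.20%) without overlap, with means of 2.00% ± 0.361 (SD, n = 5) and 3.40% ± 0.609 (SD, n = 6). Without the 3 libraries that hold liver transcripts the SCA-1neg mean was 3.02% ± 0.597 (SD, n = 3). The 95% Wilson intervals of these shares were at most 0.00855 percentage points to either side and cover counting error only, and no test was made between groups on the shares of counts.

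The 13 mRNAs made up most of this share in most libraries. Their share was 1.64%, 1.94% and 1.82% in tdT+CD49f+CD34+, 2.48%, 1.97% and 3.31% in tdTneg CD49f+CD34+, 1.27%, 1.29% and 1.32% in tdT+CD49f+CD34+SCA-1+, and 1.86% and 1.57% in tdTneg CD49f+CD34+SCA-1+ replicates. In each population the tdT+ libraries lay below the tdTneg libraries without overlap. In SCA-1neg cells the margin was 1.94% against 1.97%, both in libraries with liver transcripts. Of all single genes, 10.9% in SCA-1neg and 17.2% in SCA-1+ cells were set apart in this direction. The mean difference in SCA-1+ cells was -0.417 percentage points, -0.271 without tdTneg replicate 1 and -0.563 without tdTneg replicate 2. The tdT+ mean was 1.80% ± 0.152 (SD, n = 3) against 2.59% ± 0.678 (SD, n = 3) in SCA-1neg cells, and 1.29% ± 0.0257 (SD, n = 3) against 1.71% ± 0.207 (SD, n = 2) in SCA-1+ cells. Without the 3 libraries, 1 tdT+CD49f+CD34+ library at 1.82% stood against 2.48% and 3.31%. The populations overlapped, since the 2 tdTneg CD49f+CD34+SCA-1+ libraries reached 1.86%, above the lowest SCA-1neg library at 1.64%.

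Relative to its mean, the share of the 2 rRNAs varied more between replicates of each group than that of the mRNAs. It was 2.56%, 1.62% and 0.757% in tdT+CD49f+CD34+, 0.296%, 1.62% and 0.380% in tdTneg CD49f+CD34+, 0.165%, 0.984% and 0.512% in tdT+CD49f+CD34+SCA-1+, and 0.376% and 0.644% in tdTneg CD49f+CD34+SCA-1+ replicates. The 3 highest values were those of the 3 libraries with liver transcripts (1.62% to 2.56%), and the other 8 ranged from 0.165% to 0.984%. The ratio of rRNA to mRNA counts was 0.820 to 1.56 in those 3 and 0.115 to 0.762 in the other 8. Rn7sk, an RNA of the nucleus without a poly(A) tail, was also highest in those 3, at 924.6 to 1679 CPM against 20.8 to 183.1, while the share of nuclear rRNA genes was not set apart (1.07% to 4.20% against 0.596% to 4.10%). Fewer mitochondrial transcripts per cell and more of other RNA cannot be told apart in such shares, and the part of the liver transcripts or of RNA without poly(A) tails in the rRNA share was not tested.

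**Figure D2:**
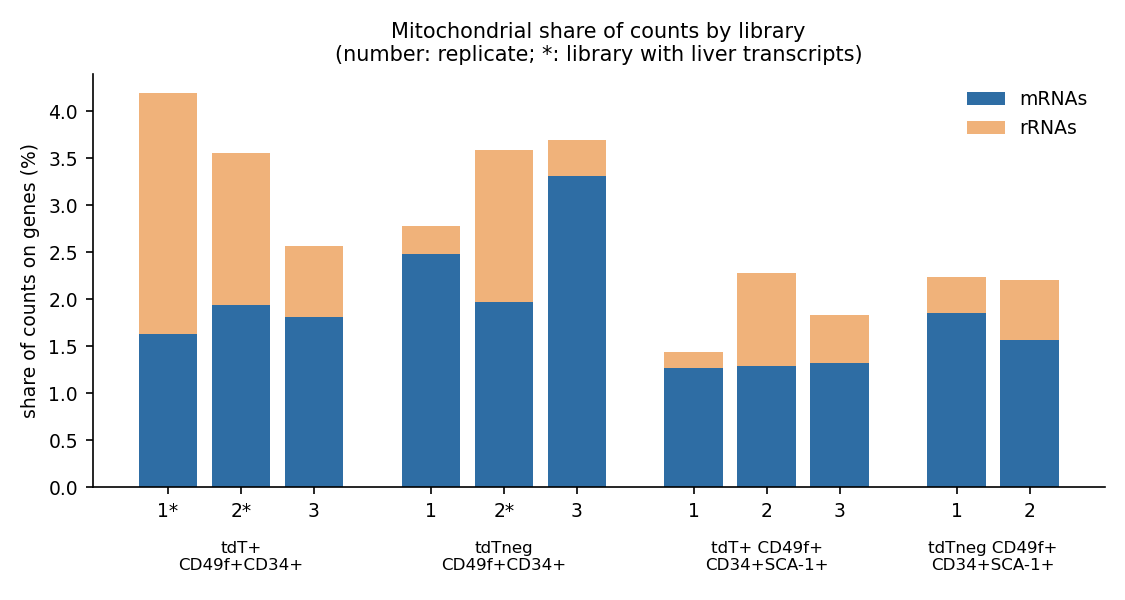
Stacked bars give the percentage of counts on genes that fell on mitochondrial mRNAs (blue) and rRNAs (orange) in each library, by group and replicate number; an asterisk marks the 3 libraries with liver transcripts. The blue parts are lower in tdT+ than in tdTneg libraries of each population, narrowly in SCA-1neg cells (1.94% against 1.97%). The orange parts are tallest in the marked libraries.

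Between populations, 4 of the 7 counted mRNAs were lower in CD49f+CD34+SCA-1+ than in CD49f+CD34+ cells at an adjusted p-value under 0.05, and none passed the threshold of the study, which also asks for an absolute log2 fold change over 1. Counts of all genes were fitted together with edgeR's quasi-likelihood test. 7 mRNAs, 2 rRNAs and 10 tRNAs were among the 20307 genes that passed its filter on low counts. Averaged over tdT status, 11.6% of genes passed both thresholds, and of the members 0, with 5 of 7 mRNAs, 0 of 2 rRNAs and 2 of 10 tRNAs at an unadjusted p under 0.05, as 34.4% of all genes were. DESeq2 called 0 mRNAs and 0 rRNAs as well, but 1 tRNA, where it called 16.3% of all genes. In the 8 libraries without liver transcripts 0 of 7 mRNAs passed both thresholds (13.6% of all genes) and the same 4 the adjusted p-value alone (19% of all genes). By the adjusted p-value alone 19.3% of genes passed, 10.4% of all genes in the direction of lower values in SCA-1+ cells. The median log2 difference was -0.69 over the 7 mRNAs and -0.09 over all genes tested.

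mt-Nd4, of the proton-pumping arm of complex I, stood at 1640.6, 1588 and 1690.0 normalised CPM in tdT+CD49f+CD34+ replicates and at 2218, 2157 and 2936 in tdTneg CD49f+CD34+ replicates. It stood at 972.1, 1012 and 1166 in tdT+CD49f+CD34+SCA-1+ and at 1485 and 1441 in tdTneg CD49f+CD34+SCA-1+ replicates. All 5 SCA-1+ libraries were below all 6 SCA-1neg libraries. Its log2 fold change was -0.69 ± 0.13 (SE; edgeR, adjusted p = 0.00633), and -0.74 with an adjusted p of 0.0108 without the 3 libraries.

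mt-Cytb, the only mitochondrially encoded subunit of complex III, stood at 4586, 4483 and 4610.4 normalised CPM in tdT+CD49f+CD34+ and at 6236, 5691 and 8749 in tdTneg CD49f+CD34+ replicates. It stood at 2642, 3055 and 3083 in tdT+CD49f+CD34+SCA-1+ and at 3867 and 3808 in tdTneg CD49f+CD34+SCA-1+ replicates, again below every SCA-1neg library. Its log2 fold change was -0.74 ± 0.16 (SE; edgeR, adjusted p = 0.0119), and -0.80 with an adjusted p of 0.0120 without the 3 libraries.

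mt-Nd1 stood at 2557, 2317 and 2753 normalised CPM in tdT+CD49f+CD34+ and at 3364, 2641 and 5316 in tdTneg CD49f+CD34+ replicates. It stood at 1596, 1642 and 1895 in tdT+CD49f+CD34+SCA-1+ and at 1977 and 1844 in tdTneg CD49f+CD34+SCA-1+ replicates, and the populations did not overlap. Its log2 fold change was -0.78 ± 0.19 (SE; edgeR, adjusted p = 0.0202), and -0.92 with an adjusted p of 0.00747 without the 3 libraries.

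mt-Nd2 stood at 1521, 1654 and 1614 normalised CPM in tdT+CD49f+CD34+ and at 2083, 1386 and 2975 in tdTneg CD49f+CD34+ replicates. It stood at 912.0, 881.5 and 1078 in tdT+CD49f+CD34+SCA-1+ and at 1202 and 1228 in tdTneg CD49f+CD34+SCA-1+ replicates. Here too no SCA-1+ library reached an SCA-1neg library. The log2 fold change was -0.78 ± 0.19 (SE; edgeR, adjusted p = 0.0189), and -0.89 with an adjusted p of 0.00529 without the 3 libraries.

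The other 3 mRNAs did not pass. mt-Co1 stood at 5785 to 10176 normalised CPM in SCA-1neg and 4494 to 7001 in SCA-1+ libraries, with a log2 difference of -0.42 ± 0.17 (SE; adjusted p = 0.108), and -0.43 in the 8 libraries without liver transcripts. mt-Nd5 stood at 1405 to 2219 and 1255 to 1749, with a difference of -0.22 ± 0.14 (adjusted p = 0.308), and -0.15 in those 8. mt-Nd6 stood at 197.0 to 511.1 and 314.0 to 411.4, with a difference of 0.07 ± 0.22 (adjusted p = 0.846) and a 95% interval of -0.41 to 0.56, and stood at -0.064 in those 8. For 4 of the 7 mRNAs the groups did not overlap, all lower in SCA-1+ cells, as for 5.66% of all genes tested. In the 8 other libraries it was the same 4, against 13.7% of all genes.

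**Figure D3:**
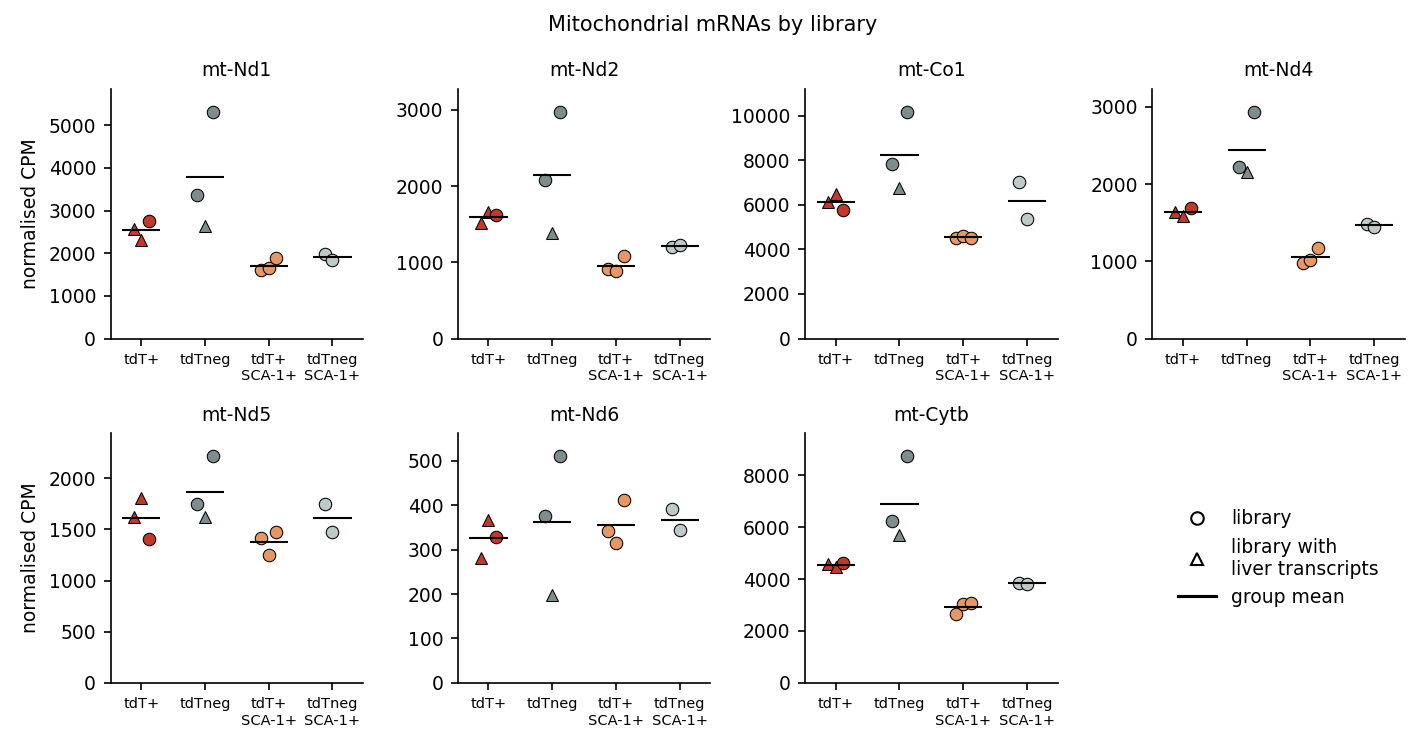
Each panel gives the normalised CPM of 1 mRNA (axis from 0) in every library of the 4 groups, with the group mean as a line and triangles for the 3 libraries with liver transcripts. mt-Nd1, mt-Nd2, mt-Nd4 and mt-Cytb are lower in all SCA-1+ than in all SCA-1neg libraries, and mt-Nd6 is not.

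The rRNAs did not pass between the populations, and the size of their fitted differences rested on the 3 libraries. mt-Rnr1 (chrM:70-1024), the RNA of the small ribosomal subunit, stood at 8124, 4547 and 2591 normalised CPM in tdT+CD49f+CD34+ and at 973.6, 5547 and 1352 in tdTneg CD49f+CD34+ replicates. It stood at 580.8, 3307 and 1794 in tdT+CD49f+CD34+SCA-1+ and at 1253 and 2084 in tdTneg CD49f+CD34+SCA-1+ replicates. Its log2 difference was -1.04 ± 0.58 (SE; adjusted p = 0.237), and 0.045 without the 3 libraries. mt-Rnr2 (chrM:1094-2675), the RNA of the large subunit, stood at 20515, 11116 and 4992 in tdT+CD49f+CD34+, at 1874, 11238 and 2418 in tdTneg CD49f+CD34+, at 1029, 6408 and 3467 in tdT+CD49f+CD34+SCA-1+ and at 2321 and 4292 in tdTneg CD49f+CD34+SCA-1+ replicates. Its log2 difference was -1.20 ± 0.63 (SE; adjusted p = 0.213), and 0.093 without the 3 libraries. Both rRNAs rose and fell together, with 1.77 to 2.53 counts on mt-Rnr2 for each count on mt-Rnr1.

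**Figure D4:**
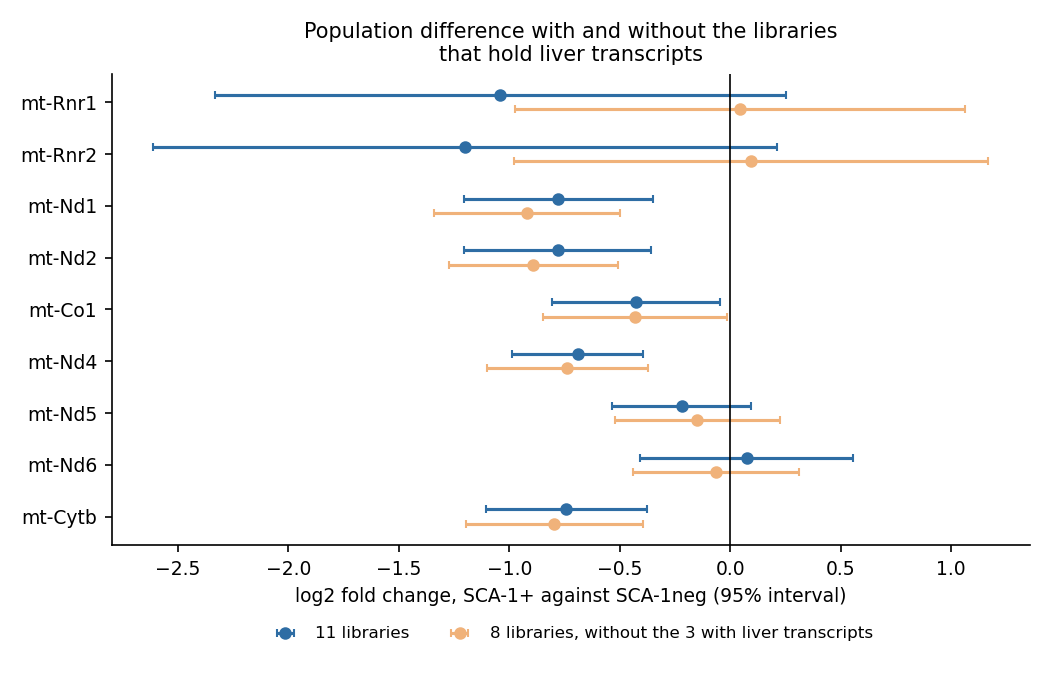
Points give the log2 fold change of SCA-1+ against SCA-1neg cells for the 2 rRNAs and 7 mRNAs, with 95% intervals, in all 11 libraries (blue) and in the 8 without liver transcripts (orange). The rRNAs move from -1.04 and -1.20 to 0.045 and 0.093, and mt-Nd1, mt-Nd2, mt-Nd4 and mt-Cytb stay below 0.

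Within tdT+ cells the 7 mRNAs had a median log2 difference of -0.57 between SCA-1+ and SCA-1neg libraries, and within tdTneg cells of -0.74. Within tdT+ cells 8.45% of all genes were called, and 12.3% by the adjusted p-value alone. There mt-Nd4, at -0.64 ± 0.18 (SE; edgeR, adjusted p = 0.0404), was the only member to pass by the adjusted p-value, and 4 of 7 mRNAs had an unadjusted p under 0.05, as 30.5% of all genes had. With the 3 libraries left out, which leaves 1 SCA-1neg library on this side, mt-Nd4 stood at -0.71 and no longer passed (adjusted p = 0.0984, with 10.3% of all genes passing), and mRNA adjusted p-values began at 0.0880. Within tdTneg cells 4.74% of all genes were called, and 5.77% by the adjusted p-value alone, with 0 members by either rule in edgeR, 0 in DESeq2 (10.1% of all genes) and 4 of 7 mRNAs at an unadjusted p under 0.05 (21.1% of all genes). The number called by both thresholds depended on 1 library: without tdTneg CD49f+CD34+ replicate 2, mt-Nd1 (-1.18, adjusted p = 0.0365) and mt-Nd2 (-1.05, adjusted p = 0.0334) passed both thresholds, as 4.2% of all genes did. With all 3 libraries left out the values were -1.14 (adjusted p = 0.0204) and -1.01 (adjusted p = 0.0219), and 8.47% of all genes were called. Transcripts of other cell types moved with these groups. For endothelial cells, a list of 6 summed to 3839 and 3900 CPM in the tdTneg CD49f+CD34+SCA-1+ libraries, against 9.23 to 838.2 CPM in the other 9, with none of the 6 at 0. A list of 8 T cell transcripts summed to 406.8 to 1041 CPM in tdT+CD49f+CD34+SCA-1+ libraries and to 23.3 to 158.8 CPM in the other 8. A list of 4 leukocyte transcripts summed to 267.0 to 482.3 CPM in tdT+ SCA-1+ against 51.2 to 109.5 in tdT+ SCA-1neg libraries, and to 92.9 and 198.5 against 6.26 to 31.9 in tdTneg libraries. A list of 4 Langerhans cell transcripts summed to 423.4 and 466.6 CPM in tdTneg SCA-1+ against 12.01 to 61.6 in tdTneg SCA-1neg libraries, but overlapped within tdT+ cells (154.4 to 246.4 against 46.1 to 248.0). Its members did not all move alike: averaged over tdT status 3 were called higher and 1 lower in SCA-1+ cells (11.6% of all genes called). Melanocyte transcripts, 4 in all, were lower in SCA-1+ libraries, at 5.57 to 15.7 against 24.4 to 46.7 CPM in tdT+ and 13.9 and 34.9 against 57.8 to 60.5 CPM in tdTneg cells. Fibroblast transcripts overlapped in both, and 4 muscle transcripts summed to at most 13.3 CPM. The sum of 8 keratinocyte and sort markers was higher in SCA-1+ libraries within tdT+ cells (36779 to 42341 against 18059 to 25428 CPM) and overlapped within tdTneg cells. Within tdT+ cells 3 of the 8 were called higher and 1 lower (8.45% of all genes called). A list of 10 transcripts that rise on tissue dissociation, among them Fos and Hspa1a, was lower in SCA-1+ libraries within tdTneg cells (11989 and 12208 against 14463 to 18970 CPM) and overlapped within tdT+ cells (12858 to 17092 against 9673 to 18053). It was also higher in every tdT+ than in both tdTneg libraries of SCA-1+ cells. None of these lists had a gene at 0 in all 11 libraries, and their part in the mitochondrial values was not tested.

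Between tdT+ and tdTneg cells no mRNA passed, although all 7 fitted values were below 0 in both populations. In CD49f+CD34+ cells the median was -0.43 (-0.03 over all genes), with 3 of 7 at an unadjusted p under 0.05 (8.42% of all genes) and adjusted p-values from 0.395 to 0.907. By either rule 0.00985% of all genes passed. The difference was -0.57 ± 0.18 (SE) for mt-Nd4, -0.60 ± 0.22 for mt-Cytb and -0.43 ± 0.23 for mt-Co1, and these 3 were lower in every tdT+ than in every tdTneg library, as 10.9% of all genes were. In CD49f+CD34+SCA-1+ cells the median was -0.34 (0.04 over all genes), with 1 of 7 at an unadjusted p under 0.05, near the share over all genes (14.6%), and adjusted p-values from 0.288 to 0.985. Here 2.31% of all genes passed both thresholds and 2.55% the adjusted p-value. The difference was largest for mt-Nd4, at -0.48 ± 0.19 (SE), and 5 of 7 mRNAs (mt-Nd2, mt-Co1, mt-Nd4, mt-Nd5 and mt-Cytb) were lower in every tdT+ library, against 17.2% of all genes. DESeq2 called 0 members in either comparison, and 1.63% and 5.54% of all genes. In the 8 libraries without liver transcripts the medians were -0.63 (-0.12 over all genes) and -0.41 (-0.0039 over all genes), again with 0 mRNAs called (0.158% and 5.35% of all genes), and in SCA-1neg cells 1 tdT+ library then stood against 2. The rRNAs had fitted differences above 0 (mt-Rnr2 1.24 ± 0.83 in SCA-1neg and 0.14 ± 0.92 in SCA-1+ cells), with adjusted p-values of at least 0.728 (edgeR). In SCA-1neg cells mt-Rnr2 exceeded the fold threshold but not the other. In SCA-1+ cells it ranged from -0.61 to 0.59 when each library was left out. The effect of tdT did not differ detectably between the populations for any member (edgeR and DESeq2, 0 called; 0 of 7 mRNAs at an unadjusted p under 0.05). Of all genes 0.389% passed in edgeR, with or without the fold threshold, 3.8% in DESeq2, and 12.4% had an unadjusted p under 0.05. Marker lists moved with tdT as well. The sum of the keratinocyte and sort markers was lower in tdT+ than in tdTneg SCA-1neg libraries (18059 to 25428 against 27364 to 29878 CPM), with 5 of 8 fitted values below 0. It was higher in tdT+ than in tdTneg SCA-1+ libraries (36779 to 42341 against 27196 and 28115), with 1 of 8 below 0. In SCA-1neg cells T cell transcripts stood at 32.9 to 78.2 against 23.3 to 30.1 CPM, leukocyte transcripts at 51.2 to 109.5 against 6.26 to 31.9 and melanocyte transcripts at 24.4 to 46.7 against 57.8 to 60.5, all without overlap. Their part in the mitochondrial values was not tested. The 95% interval of the difference between both tdT effects was -0.49 to 0.68 for mt-Nd4.

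Within the mRNA pool, with all 11 libraries, only mt-Nd6 of the 7 counted mRNAs took shares that did not overlap between the populations. mt-Nd6 took 1.54%, 1.97% and 1.81% of the counts on mRNAs in tdT+CD49f+CD34+ and 1.57%, 0.963% and 1.55% in tdTneg CD49f+CD34+ replicates, against 2.76%, 2.46% and 3.03% in tdT+CD49f+CD34+SCA-1+ and 2.21% and 2.22% in tdTneg CD49f+CD34+SCA-1+ replicates. mt-Nd6 is the only mRNA encoded on the strand opposite to the other 12. Its gene overlaps the end of mt-Nd5, and without the strand setting its counts cannot be assigned to that strand. Its own level differed by 0.07 between the populations (log2; edgeR, adjusted p = 0.846), while mt-Nd1, mt-Nd2, mt-Nd4 and mt-Cytb were lower. mt-Nd5 took 6.75% to 9.67% in SCA-1neg and 9.49% to 11.4% in SCA-1+ libraries, which overlapped only through tdT+CD49f+CD34+ replicate 2, a library with liver transcripts. With all 3 libraries that hold liver transcripts left out, the range in SCA-1neg cells was 6.75% to 7.72%. mt-Co1 took 30.9% to 34.6% and 33.0% to 39.6%, and mt-Cytb 23.99% to 27.8% and 21.3% to 24.6%. mt-Nd1 took 12.4% to 16.2% and 11.2% to 13.9%, mt-Nd2 6.77% to 9.05% and 6.80% to 7.93%, and mt-Nd4 8.50% to 10.5% and 7.85% to 9.29%. In the 8 libraries without liver transcripts, 3 against 5, the shares of every counted mRNA but mt-Nd4 did not overlap, with mt-Nd5, mt-Nd6 and mt-Co1 higher and mt-Nd1, mt-Nd2 and mt-Cytb lower in SCA-1+ cells. The shares of a total are tied to each other, and no test was made on them.

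**Figure D5:**
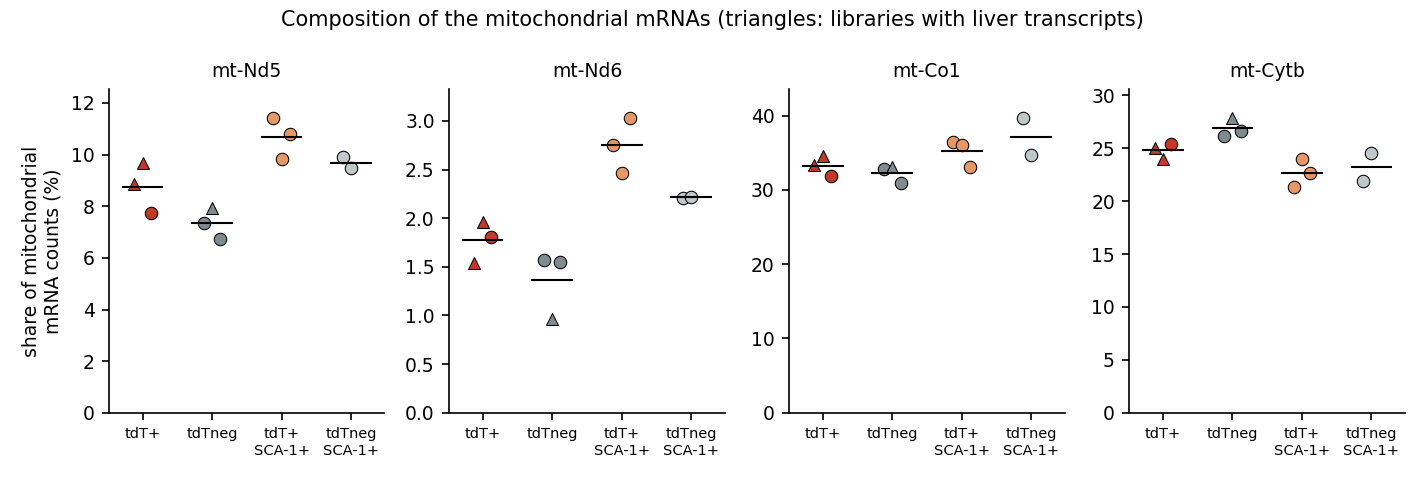
Points give the share of counts on mitochondrial mRNAs, in percent with the axis from 0, that fell on mt-Nd5, mt-Nd6, mt-Co1 and mt-Cytb in each library; lines are group means and triangles the 3 libraries with liver transcripts. All SCA-1+ libraries exceed all SCA-1neg libraries for mt-Nd6 (2.21% to 3.03% against 0.963% to 1.97%).

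The 22 tRNAs took at most 0.00460% of counts in any library. 7 were at 0 in all 11 libraries and 15 had counts, of which 10 passed the filter. The 3 highest were mt-Tp (proline), with 2629 counts in all and 101 to 524 per library, mt-Tl1 (leucine), with 820 in all and 36 to 148 per library, and mt-Tc (cysteine), with 818 in all and 7 to 228 per library. edgeR called 0 in any comparison (adjusted p of at least 0.0740 between the populations), and DESeq2 called mt-Tq (glutamine) lower in SCA-1+ cells, at -4.39 (adjusted p = 0.00965) over both tdT states and -6.09 (adjusted p = 0.0126) within tdT+ cells, and mt-Te (glutamate) at -2.93 (adjusted p = 0.0471) within tdT+ cells. DESeq2 called 16.3% of all genes over both tdT states and 15.5% within tdT+ cells, and gave no adjusted p to 1 to 4 of the 10 tRNAs, depending on the comparison. mt-Tq held 95, 43 and 72 counts in the 3 libraries with liver transcripts and 0 to 9 in the other 8. mt-Te held 96, 54 and 105 in those 3 and 0 to 28 in the others. mt-Tl2, named after its values were seen, held 426, 4 and 93 counts in the 3 libraries and 0 to 6 in the others.

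Among nuclear genes of mitochondrial gene expression none passed both thresholds with all 11 libraries. The list held 43 factors (the mitochondrial RNA polymerase, its transcription and replication partners, RNA processing and stability proteins and the regulators of their genes), and all 43 were tested. Between the populations 0 were called, with a median log2 difference of -0.03, and by the adjusted p-value alone 2 were higher and 1 lower in SCA-1+ cells, where 11.6% of all genes were called, 19.3% passed the adjusted p-value and the median was -0.09. Tbrg4, an RNA-binding protein of the FASTK family, was higher by 0.56 ± 0.10 (SE; edgeR, adjusted p = 0.00377) and Pprc1, of the PGC-1 family of coactivators, by 0.63 ± 0.09 (SE; adjusted p = 0.00163). Top1mt, the mitochondrial topoisomerase, was lower, at -0.65 ± 0.15 (SE; adjusted p = 0.0144). Those 3 genes also passed the adjusted p-value without the libraries that hold liver transcripts (0.65, 0.58 and -0.74), and Ppargc1b, a coactivator of the PGC-1 family, was then called higher (1.45 ± 0.28, SE; edgeR, adjusted p = 0.00549), against 0.52 (adjusted p = 0.347) with all 11 libraries. That is 1 of 43 called where 13.6% of all genes were, and the value within tdT+ cells, 2.71, rests on 1 SCA-1neg library. Between tdT+ and tdTneg cells 0 of 43 passed by either rule in either population, with medians of -0.13 in SCA-1neg and 0.12 in SCA-1+ cells (-0.03 and 0.04 over all genes).

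The nuclear subunits of the complexes that mitochondrial mRNAs contribute to were rarely called. Of 76 listed subunits of complexes I, III, IV and the ATP synthase, 74 were tested. Between the populations 1 was called, Ndufa11 of complex I, which fell from a mean of 70.4 to 32.5 normalised CPM (-1.14 ± 0.18, SE; edgeR, adjusted p = 0.00241), and stood at -1.36 without the libraries that hold liver transcripts. Ndufs4 of complex I was lower by the adjusted p-value alone (-0.58 ± 0.18, SE; adjusted p = 0.0444), and 0 were higher. Of all genes 11.6% were called there and 19.3% passed the adjusted p-value. The median was -0.13 over the 74 subunits, near the -0.09 over all genes, and -0.69 over the 7 mRNAs. Within tdTneg cells the median was -0.42 for the subunits and -0.74 for the mRNAs (-0.13 over all genes), with 1 subunit called (Ndufa11) where 4.74% of all genes were, and within tdT+ cells it was 0.20 for the subunits and -0.57 for the mRNAs (-0.07 over all genes), with 0 called where 8.45% of all genes were. Between tdT+ and tdTneg CD49f+CD34+ cells the medians were -0.12 and -0.43 (-0.03 over all genes), with 58 of the 74 fitted values below 0, as 52.6% of all genes were. Between tdT+ and tdTneg CD49f+CD34+SCA-1+ cells they were 0.47 and -0.34 (0.04 over all genes), with 4 of 74 below 0 against 45.7% of all genes, and 0 subunits were called in either. Without the 3 libraries the subunit medians were -0.34 within tdTneg (-0.010 over all genes) and 0.18 within tdT+ cells (0.12 over all genes). They were -0.086 between tdT+ and tdTneg SCA-1neg (-0.12 over all genes) and 0.41 between tdT+ and tdTneg SCA-1+ cells (-0.0039 over all genes). Ndufa11 then stood at -1.48 within tdT+ cells, a value that rests on 1 SCA-1neg library. No test was made of the difference between the 2 sets.

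The 10 nuclear genes whose log2 normalised CPM was most like that of the summed mRNAs over the 11 libraries were Rcn2, Rbbp9, Efcab1, Nicn1, Ankrd46, Oxtr, Gm48768, Mvb12b, Tbc1d19 and Supt3. Pearson's r ran from 0.979 for Rcn2, a calcium-binding protein of the endoplasmic reticulum, to 0.908 for Supt3. Over the 8 libraries without liver transcripts r was 0.978 for Rcn2 and at least 0.921 for the other 9. Rcn2 ranged from 28.9 to 82.5 normalised CPM. The values are a description, since these genes were picked from all genes for their likeness and the libraries share 4 group means.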

How the data were processed

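The deposited files hold raw counts per gene in 11 libraries, 1 file each. By the study's methods, the authors aligned reads with STAR to mm10 and counted them with featureCounts on Ensembl release 96; the strand setting and the handling of reads with several matches are not given in the sources used here. All 55536 identifiers matched the GENCODE annotation of that release, and 1 row outside it was kept out of totals. Counts were fitted in R 4.3.3 with edgeR 4.0.16 (TMM, filterByExpr, quasi-likelihood F-test, 4 group means, all 11 libraries), with Benjamini-Hochberg adjustment over 20307 genes and genes were called where the adjusted p fell below 0.05 and the log2 fold change exceeded 1 in size. DESeq2 1.42.0 was an alternative. Normalised CPM are counts scaled to 1000000 per TMM-adjusted library. Where nothing says that libraries came from separate sorts, p-values measure the spread between these libraries. Windows of 50 bases were compared with all annotated nuclear transcripts; unannotated DNA was not searched. Depth was 17409131 to 46542177 counts. All 37 members were accounted for: mRNAs and rRNAs by name, and tRNAs by counts, with the 3 highest and those called by name. The members, lists, named genes and tests were chosen with earlier results of these data known, and the list of liver transcripts and the fits without libraries above 1000 CPM of it, members and nuclear lists alike, were added after seeing these data.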

Additional observations from a re-analysis of the deposited data

Results flagged for a closer look

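Counts outside the comparisons above were present on nuclear copies of mitochondrial genes. Gm28438, the copy of mt-Nd3, held between 19 and 129 counts per library, and Gm13340, a copy of mt-Co1, between 25 and 132. Transcripts of 12 liver proteins reached 31132 CPM in sum (the highest value, in replicate 1 of tdT+CD49f+CD34+), and lay above 1000 CPM in 3 of 11 libraries.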

How the results depend on the processing

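The number of mRNAs called stayed at 0 in all 6 comparisons with DESeq2, RLE size factors, library sizes from nuclear genes, both other filters on low counts and, where run, only the groups compared. Without the fold threshold it was 4 between the populations and 1 within tdT+ cells. When each library was left out in turn it ranged from 0 to 2 within tdTneg cells, and was 0 in the other comparisons; without the 3 libraries that hold liver transcripts it was 2 within tdTneg cells. With the replicate number as a block it was 0 in all 6. The numbers were not treated as pairs in the main fit. The study's methods count 3 biological replicates in total, each from 2 mice, so same-numbered libraries may share mice. Values of n count libraries, which the main fit takes as independent. Same-numbered libraries of different groups had correlations of their deviations from -0.42 to 0.59 over 15 pairs (median 0.08). Of 11 libraries, 7 correlated best with one of their own number. With the block, mt-Nd1, mt-Nd2, mt-Nd4 and mt-Cytb had adjusted p-values of 0.00903 to 0.0252 between the populations (edgeR). The block moved genes called between the populations from 2347 to 2262, and within tdTneg cells from 963 to 811. The latter count ranged from 55 to 1300 with each library left out, lowest without tdTneg CD49f+CD34+SCA-1+ replicate 1.

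The difference in mitochondrial share between SCA-1+ and SCA-1neg libraries (-1.40 percentage points) was -0.73 with the 13 mRNAs only. That between tdT+ and tdTneg CD49f+CD34+ libraries (0.09) turned to -0.79 with the mRNAs only and -0.66 without the 3 libraries, and ranged from -0.29 to 0.53 when each library was left out. Without the 3 libraries the difference between populations in rRNA share turned from -0.67 to 0.058, and with each library left out that between tdT+ and tdTneg CD49f+CD34+SCA-1+ libraries ranged from -0.17 to 0.24. Without mt-Co1 in the total, the composition differences were 4.08 percentage points for mt-Nd5 (2.24 with it) and 1.62 for mt-Nd6 (0.97 with it).

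Of 1062 fold changes of single mRNAs and rRNAs under other settings, 46 changed sign, all of values within 1.25 of 0 on the log2 scale. The 1062 include the setting without a fold threshold, which repeats the main values and could not change sign. Without the 3 libraries these were 0.045 for mt-Rnr1, 0.093 for mt-Rnr2 and -0.064 for mt-Nd6 between the populations, 0.56, 0.67 and -0.22 within tdTneg cells, and, for the gap between both tdT effects, 0.12 for mt-Co1 and 0.21 for mt-Nd5. This gap also turned under DESeq2, RLE factors, a minimum of 10 counts in every library and the replicate block: -0.040, -0.040, -0.073 and -0.098 for mt-Nd2, -0.025, -0.025, -0.055 and -0.0062 for mt-Nd4, and -0.024, -0.024, -0.059 and -0.12 for mt-Nd6; RLE factors moved its median over all genes from 0.05 to -0.07. With each library left out, the values that turned ranged, for this gap, from -0.23 to 0.20 for mt-Co1, -0.0037 to 0.32 for mt-Cytb, -0.22 to 0.31 for mt-Nd2, -0.063 to 0.17 for mt-Nd4, -0.17 to 0.13 for mt-Nd5 and -0.24 to 0.39 for mt-Nd6; between the populations from -0.072 to 0.24 for mt-Nd6, and within tdTneg cells from -0.27 to 0.36 for mt-Nd6, -1.05 to 0.52 for mt-Rnr1 and -1.12 to 0.63 for mt-Rnr2; and between tdT+ and tdTneg cells from -0.44 to 0.19 (CD49f+CD34+) and -0.18 to 0.041 (CD49f+CD34+SCA-1+) for mt-Nd6, -0.54 to 0.61 for mt-Rnr1 and -0.61 to 0.59 for mt-Rnr2 (both CD49f+CD34+SCA-1+). The causes were not tested. At these depths 12 of 22 tRNAs did not pass the filter on low counts.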
